A study of Mus musculus with 12 samples.

Results

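The chromatin around 8 genes of fibroblast growth factor (FGF) signaling was examined in mouse forelimb buds: the ligands Fgf4, Fgf8, Fgf9 and Fgf17, which the apical ectodermal ridge produces, the mesenchymal ligand Fgf10, and the receptors Fgfr1, Fgfr2 and Fgfr3. They are 8 of the 21774 protein-coding genes of the RefSeq annotation, and the rule names them without reference to any measured value, although the list was drawn up with earlier results of these data known. For each gene, every summit of the deposited peak lists within 150 kb of the gene body was taken. This gave 34 of the 16238 β-catenin summits and 87 of the 31466 H3K27ac summits in the consensus lists of the controls. The study asked which genes β-catenin binds near when WNT signaling is active. All embryos were wild-type Swiss Albino mice, exposed at E10.5 by intraperitoneal injection of the mother with either the DMSO solvent (control) or C59, and forelimb buds were dissected 6 h later. C59 is an inhibitor of porcupine, which attaches a lipid to WNT proteins before they leave the cell, so its effects are not specific to the β-catenin branch. Forelimb buds were pooled for every library, so that the thin ectoderm and ridge were mixed with the mesenchyme. There were 2 replicates for each antibody and treatment, and no group carried a genetic change.

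FGFs of the ridge signal to the underlying mesenchyme and sustain outgrowth of the limb bud, and FGF10 from the mesenchyme signals back to the ectoderm and keeps the ridge in place. FGFR1 is the main receptor of the distal mesenchyme, one splice form of FGFR2 receives FGF10 in the ectoderm, and FGFR3 acts later in cartilage. Canonical WNT signaling works through β-catenin, which has no DNA-binding domain of its own and is held on chromatin by TCF/LEF factors. These factors recognise the core ATCAAAG or TTCAAAG on either strand. H3K27ac marks active promoters and enhancers.

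The first sequences below are those under the 2 strongest β-catenin summits of Fgf10, which had the most summits of the 8 genes in the consensus list, and capitals mark the short core CAAAG where it is present. The other sequences are 41-base windows around a full TCF/LEF core (capitals, on either strand) at β-catenin summits near Fgf10, Fgf9, Fgf17 and Fgfr2. All were read from the plus strand of the mouse genome, build GRCm38 (mm10).
Fgf10 intron, chr13:118746542-118746662: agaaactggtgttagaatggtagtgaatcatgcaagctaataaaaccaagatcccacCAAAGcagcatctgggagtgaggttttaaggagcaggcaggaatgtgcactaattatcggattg
Fgf10 intron, element mm917, chr13:118735802-118735922: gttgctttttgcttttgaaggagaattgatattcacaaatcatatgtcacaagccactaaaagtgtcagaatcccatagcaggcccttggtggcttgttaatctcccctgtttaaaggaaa
Fgf10 intron, chr13:118721761-118721801: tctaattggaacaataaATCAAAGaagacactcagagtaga
Fgf10 promoter side, chr13:118713668-118713708: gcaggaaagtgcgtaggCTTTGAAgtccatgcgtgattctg
Fgf9 upstream, intron of Micu2, chr14:57978681-57978721: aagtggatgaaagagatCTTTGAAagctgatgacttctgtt
Fgf9 downstream, chr14:58190870-58190910: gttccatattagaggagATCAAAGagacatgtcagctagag
Fgf17 upstream, at Npm2, chr14:70659359-70659399: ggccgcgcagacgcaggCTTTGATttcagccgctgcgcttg
Fgfr2 downstream, chr7:130082844-130082884: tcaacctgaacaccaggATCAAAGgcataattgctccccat

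Depth, read from the fold enrichment and p of each peak, was 2.93 and 3.39 Gb of fragments in the β-catenin controls and 3.42 and 3.40 Gb after C59, and 5.03 to 5.93 Gb in the H3K27ac libraries. The lists of the β-catenin replicates held 20203 and 25836 summits in controls and 330 and 358 after C59. As a check of the tissue, an H3K27ac summit lay within 1 kb of a transcriptional start site (TSS) for 6 of 6 genes of forelimb mesenchyme in all 4 libraries. Of 6 genes of limb ectoderm and ridge, 3 and 1 had one in the controls and 2 and 1 after C59, with summed fold enrichments of 13.2 and 3.6 against 6.95 and 5.03, and Sp6, Dlx6 and Trp63 had none. Of the hindlimb genes Tbx4 had one and Pitx1 had none in each library, of 3 blood genes Klf1 and Tal1 had one in each, Cdh5 (endothelium) had one in 3 of 4, Pax3 (muscle precursors) in 2 of 4, and no gene of the neural and neural crest list had one. In these bulk samples, fewer cells of a type and less signal per cell cannot be told apart.

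β-catenin was found near all 8 genes in controls, and no β-catenin summit was listed near any of them after C59. Within 150 kb of the 8 genes, the control replicates listed 47 and 58 summits and the C59 replicates listed 0 and 0, so the treatments did not overlap. The means were 52.5 ± 7.78 (SD, n = 2) and 0, a difference of -52.5 summits (two-sided exact permutation test, p = 0.333, the smallest value that 2 against 2 libraries can give). In the consensus lists, 34 summits in controls stood against 0 after C59. Genome-wide, 68.0% of protein-coding genes had a control summit within the same distance, and 1.2% had a C59 summit. The nearest C59 consensus summit was 696 kb from Fgf10, 776 kb from Fgfr1 and 4020 kb from Fgf8 and at least 31200 kb from each of the other 5 genes. The list of C59 replicate 2 held nearer summits, 1512 kb from Fgfr2, 3252 kb from Fgf17, 7714 kb from Fgf4 and 9271 kb from Fgf9.

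**Figure D1:**
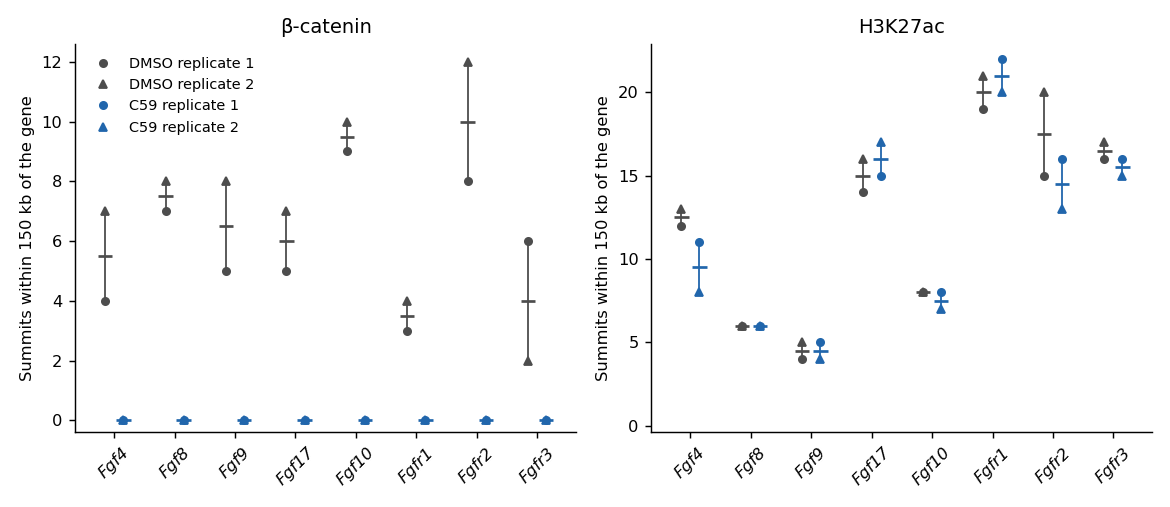
Number of β-catenin (left) and H3K27ac (right) summits within 150 kb of each gene in every library (circles replicate 1, triangles replicate 2, gray DMSO, blue C59, short bars the mean of 2, vertical lines the range). The C59 libraries lie at 0 for β-catenin at all 8 genes, while H3K27ac counts range from 4 to 22 and overlap between treatments at most genes.

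Of the 34 control summits, 0 lay in a C59 peak (95% Wilson interval 0 to 10.15%, counting error only), against 1.12% of all control summits, so the absence after C59 was shared by nearly the whole list. A peak is listed only when its q-value passes a threshold. The lowest −log10 q was 1.3 in both control lists and 1.31 and 1.38 after C59. At these q limits the C59 lists reached down to a −log10 p of 5.69 and 5.72, whereas the control lists reached 3.89 and 3.79. Of the summits near the 8 genes, 35 of 47 in replicate 1 and 41 of 58 in replicate 2 had a −log10 p of at least 5.72, against 85.4% and 79.4% of all summits of these lists. Both replicates passed this limit at 23 of the 34 consensus summits. At the other 11, at least 1 control replicate itself lay below the limit of the C59 lists, so a peak of that strength would not have been listed after C59. The summits also varied between control replicates: 63.8% of those in replicate 1 and 53.4% of those in replicate 2 lay in a peak of the other replicate, against 75.8% and 59.9% of all summits.

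**Figure D2:**
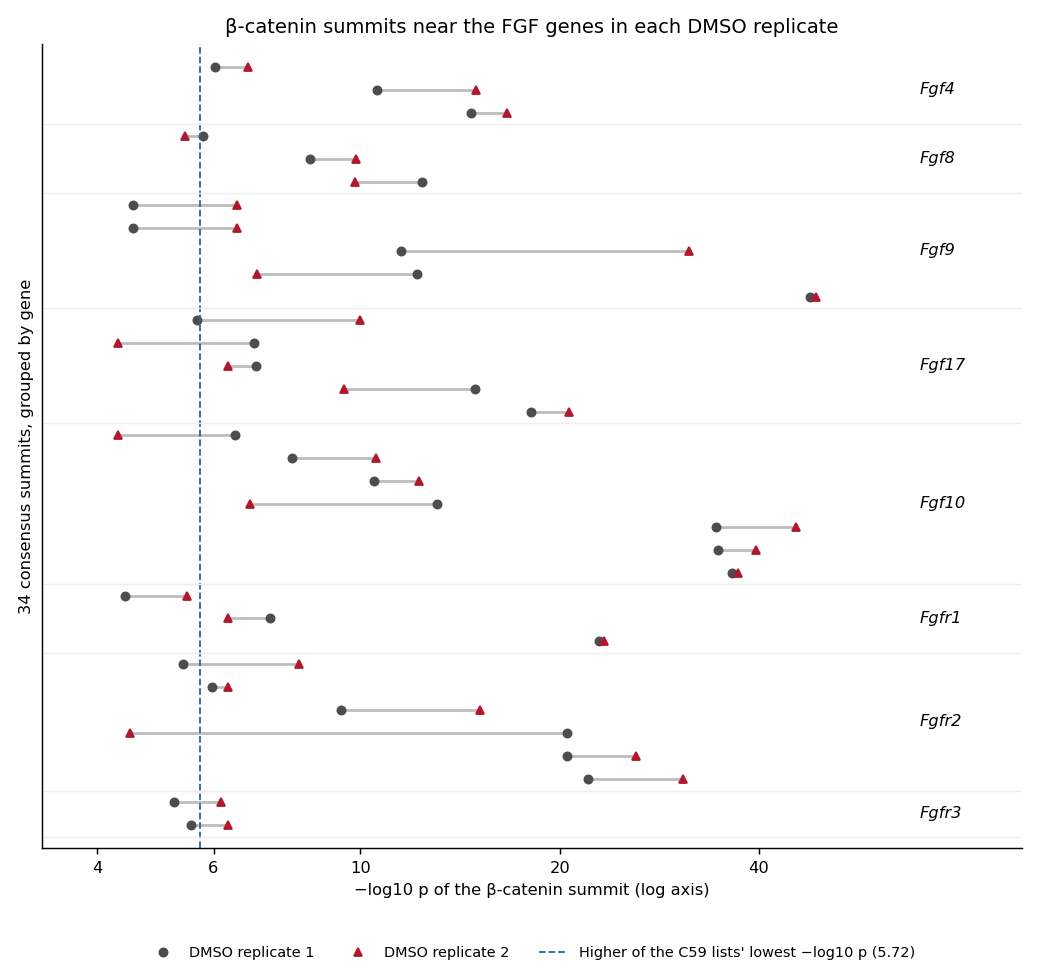
Strength (−log10 p, log axis) of the 34 β-catenin consensus summits in control replicate 1 (circles) and replicate 2 (triangles), grouped by gene, with the limit of 5.72 above which both C59 lists hold peaks (dashed line). Both replicates lie at or above the line for 23 summits, and the 3 intronic Fgf10 summits and a Fgf9 summit lie farthest to the right.

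The 34 summits had fold enrichments, the coverage over that expected from the library itself, of 3.16 to 15.1, with a median of 6.02 against 6.76 over all control summits. By location, 15 were intergenic, 11 in introns and 8 in exons. They lay 0.423 to 248 kb from the nearest TSS of the FGF gene, with a median of 79.4 kb, and only 1 was within 1 kb. The member was the gene with the nearest protein-coding TSS for 19 of the 34, and the other 15 lay nearer to another gene. Distance alone does not assign a summit to a gene.

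Fgf4 (ENSMUSG00000050917, chr7:144861386-144865245, plus strand) encodes a ridge ligand. It had 4 and 7 β-catenin summits in the control replicates and 3 in the consensus list, and none of the 3 had Fgf4 as its nearest gene. The strongest, at position 144939983, had a fold enrichment of 6.61 (5.95 and 6.26 in the replicates), lay 78.6 kb downstream and only 0.152 kb from the TSS of the cell cycle gene Ccnd1. The second was at 144941501, also beside Ccnd1, where the fold enrichment was 6.04 (4.91 and 5.88). The summit closest to Fgf4, at 144907986, had a fold enrichment of 4.98 (4.25 and 4.38), lay 46.6 kb downstream in an intron of the non-coding gene Gm39119 and carried a TCF/LEF core.

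Fgf8 (ENSMUSG00000025219, chr19:45736491-45742941, minus strand) is the FGF expressed along the whole ridge. Its window held 7 and 8 summits in the control replicates and 3 in the consensus list. The one nearest to Fgf8, at 45725823, was intergenic, 17.1 kb downstream of the TSS, with a fold enrichment of 6.79 (6.44 and 5.21). A summit at 45622394 in an intron of Fbxw4 reached 6.18 (5.17 and 5.43), and one at 45783287, in an untranslated exon of Oga, reached 4.81 (3.96 and 3.74). None of the 3 had a TCF/LEF core within 100 bp. The window just misses summits at 45585064 and 45581536, 151.4 and 155 kb from the gene, with 5.41 and 5.72.

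Fgf9 (ENSMUSG00000021974, chr14:58070671-58112854, plus strand), a ridge ligand that is also made in other embryonic tissues, had 5 and 8 summits in the replicates and 5 in the consensus list. The strongest was 92.0 kb upstream in an intron of Micu2, at 57978659, and its fold enrichment was 13.1 (12.7 and 11.7). The other 4 were intergenic, downstream of the gene. The strongest of these, at 58190903, had 10.05 in the consensus list, but 6.40 in one replicate and 11.5 in the other. The next, at 58152389, had 5.34 (6.10 and 4.18). These 3 all carried a TCF/LEF core, and in 4 of the 5 the nearest coding TSS was that of Fgf9.

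Fgf17 (ENSMUSG00000022101, chr14:70636203-70642268, minus strand), the fourth ridge ligand, lies among many genes. It had 5 and 7 summits in the replicates and 5 in the consensus list, and another gene was nearer to every one of them. The strongest, at 70659375 in an untranslated exon of Npm2, had a fold enrichment of 9.29 (7.83 and 8.40) and a TCF/LEF core. The one closest to Fgf17, at 70635736, was 6.53 kb from its TSS, but 0.312 kb from a TSS of Dmtn, and had 6.93 (6.64 and 5.03). One at 70495048, in an intron of Bmp1, reached 5.41 (4.67 and 4.27).

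Fgf10 (ENSMUSG00000021732, chr13:118714699-118792573, plus strand) had the most β-catenin summits of the 8 genes in the consensus list, with 7, and its control replicates listed 9 and 10. Of all protein-coding genes, 94.59% had fewer summits in such a window, which also grows with the length of the gene. Fgf10 was the gene with the nearest coding TSS for all 7. The 3 strongest were in its introns. That at 118746602 had a fold enrichment of 15.1 (13.5 and 12.2) and was the highest of the 34. That at 118735862 had 13.1 (11.2 and 12.5) and fell in the element mm917, which RefSeq lists as an enhancer active in limb. That at 118721871 had 12.1 (10.98 and 11.8) and a TCF/LEF core. The replicate values of these 3, 10.98 to 13.5, all lay above those of the remaining 4, which ranged from 3.20 to 6.38. The 3 were picked by consensus values that pool the same replicates, so this is a description and not separate support. A weak summit 1.02 kb upstream of the TSS, at 118713681, had 3.803 (4.05 and 3.20) and a core.

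**Figure D3:**
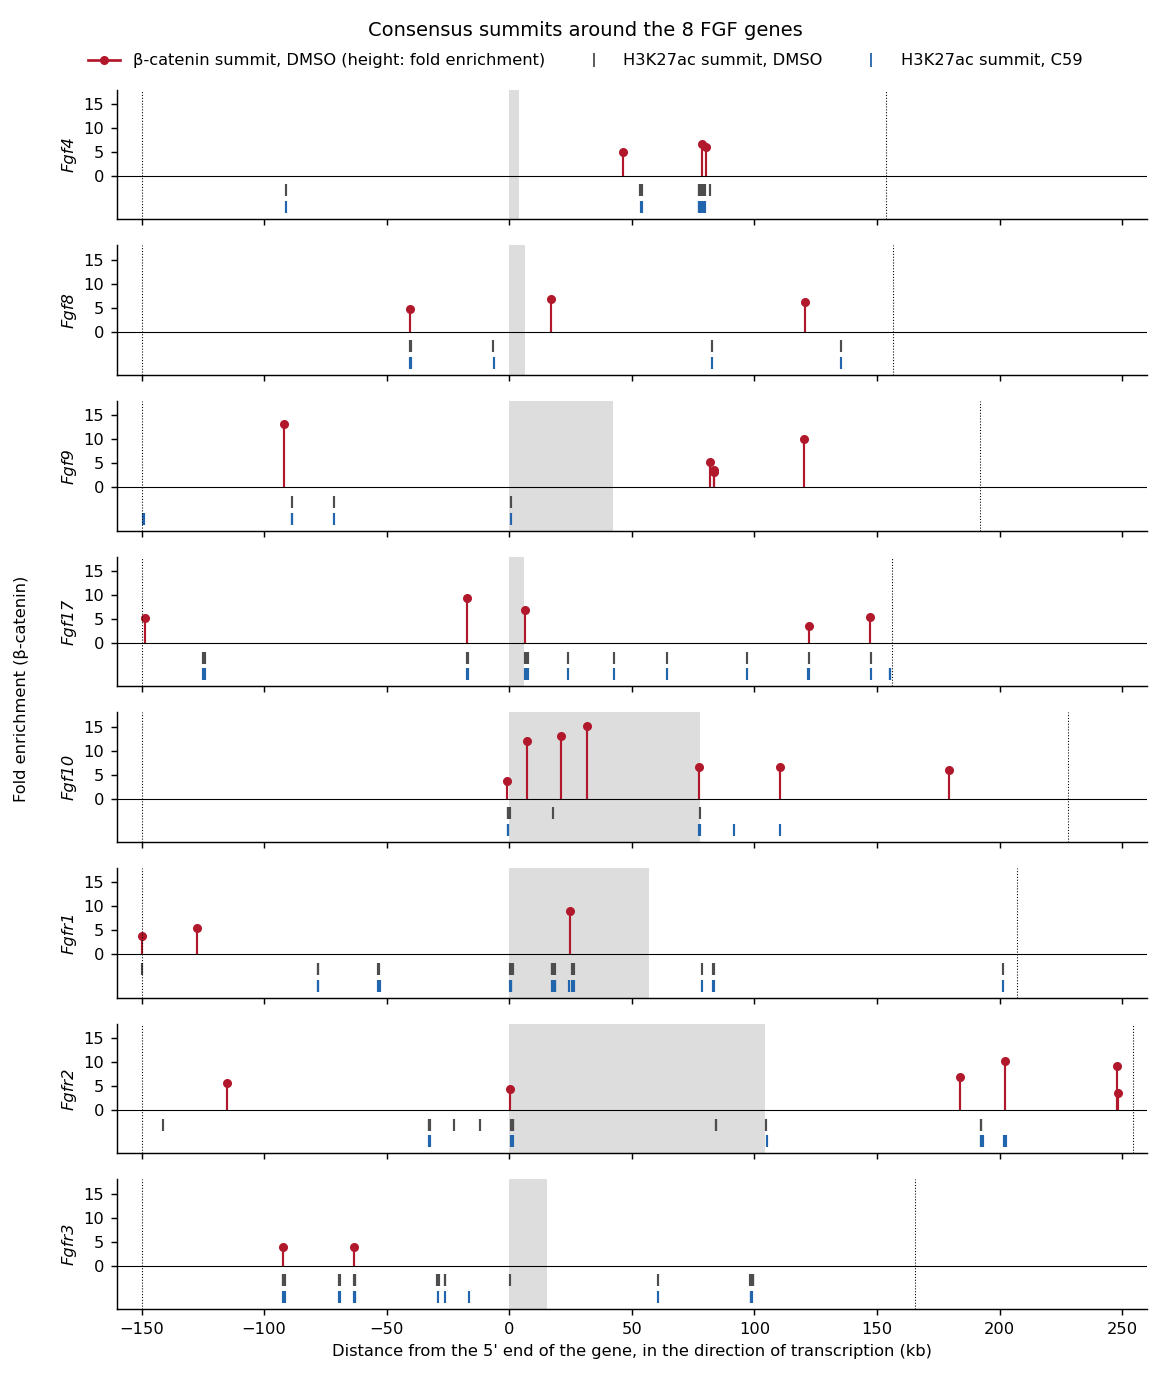
Consensus summits around the 8 genes by distance from the 5′ end of the gene in the direction of transcription (kb). Red stems give the fold enrichment of control β-catenin summits, ticks below mark H3K27ac summits in DMSO (gray) and C59 (blue), gray boxes are gene bodies and dotted lines the 150 kb limits. The 3 tallest stems inside a gene body are those of Fgf10, at 12.1 to 15.1, and no C59 β-catenin summit lies in any window.

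Fgfr1 (ENSMUSG00000031565, chr8:25518759-25575718, plus strand), the mesenchymal receptor, had 3 and 4 summits in the replicates and 3 in the consensus list. The strongest was intronic, at 25543585, with a fold enrichment of 9.07 (8.73 and 8.18), inside the element mm612, an enhancer that RefSeq records as active in limb and in several parts of the head. The other summits, at 25391290 and 25368930, had 5.57 (4.70 and 4.27) and 3.93 (3.504 and 3.91). The last lies 149.8 kb from the gene, just inside the window, and summits of 5.21 and 9.58 lie just outside it, 164.5 and 164.8 kb away.

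Fgfr2 (ENSMUSG00000030849, chr7:130162451-130266808, minus strand) had 8 and 12 summits in the replicates and 6 in the consensus list, where only Fgf10 had more, and Fgfr2 had the nearest coding TSS for all 6. The strongest were intergenic and far downstream, at 130064641 (fold enrichment 10.3; 8.58 and 10.01 in the replicates), at 130018974 with 9.29 (8.32 and 9.48) and at 130082849 with 6.90 (5.56 and 7.04). The only summit of the 34 within 1 kb of a TSS of its FGF gene was also here, at 130266385, in an untranslated exon 0.423 kb downstream of the TSS, with 4.33 (3.72 and 4.63). In the consensus lists, 8.46% of protein-coding genes had a control summit within 1 kb of a TSS. Single control replicates also listed such a summit at Fgf10 (replicate 1) and at Fgf9 (replicate 2).

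Fgfr3 (ENSMUSG00000054252, chr5:33721724-33737068, plus strand) had 6 and 2 summits in the replicates. The consensus list held 2, the lowest count of the 8 genes, with 3.93 at the promoter of Tacc3 (3.89 and 4.18) and 3.92 at that of Fam53a (3.95 and 4.27). None lay within the gene.

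The TCF/LEF core was present within 100 bp of 11 of the 34 summits (32.4%, 95% Wilson interval 19.13 to 49.16%), against 28.6% of all control summits. Of 68 control windows, placed 2 kb upstream and downstream, 5 held it (7.35%), against 8.69% for all summits. The share near the FGF genes thus lay close to that of the genome. The core occurred at 3 summits each near Fgf10 and Fgf9, at 2 near Fgf4, at 1 each near Fgf17, Fgfr1 and Fgfr2, and at none near Fgf8 and Fgfr3. The 2 strongest Fgf10 summits had no full core within 100 bp, and of their windows printed above only the first held CAAAG.

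Acetylation was compared at the promoters first. H3K27ac summits within 1 kb of a TSS were listed for Fgf9, Fgf10, Fgfr1, Fgfr2 and Fgfr3 in both control replicates. Of the 4 ridge ligands, Fgf9 had such a summit in all 4 libraries, and Fgf4, Fgf8 and Fgf17 had none in any. The 5 of 8 genes compare with 51.8% of all protein-coding genes in the control consensus list, and the 4 of 8 after C59 with 50.9%. The ectoderm and ridge markers were likewise sparse in these whole-bud samples, as given above, and whether that sets the absence at Fgf4, Fgf8 and Fgf17 was not tested.

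The highest H3K27ac fold enrichment at the Fgfr1 promoter was 8.50 and 9.26 in controls and 8.96 and 8.72 after C59. That at Fgfr2 was 9.01 and 9.84 in controls and 10.97 and 7.87 after C59, and that at Fgf9 was 4.11 and 5.23 against 5.04 and 4.78. At these 3 genes the ranges of the treatments overlapped. At Fgf10 the values were 5.32 and 5.12 in controls and 7.17 and 6.35 after C59. The log2 difference of the Fgf10 promoter region was 0.40 ± 0.17 (SE, n = 2 per treatment). It did not pass limma's test over all regions (unadjusted p = 0.044, adjusted p = 0.41). Of all regions, 11.6% had an unadjusted limma p under 0.05. At Fgfr3 the values were 3.25 and 5.41 in controls and 4.07 in C59 replicate 1, and C59 replicate 2 listed no summit. The Fgfr3 promoter, whose control consensus summit of 5.07 lay at the intron 1 enhancer that RefSeq lists, was for that reason absent from the C59 consensus list.

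**Figure D4:**
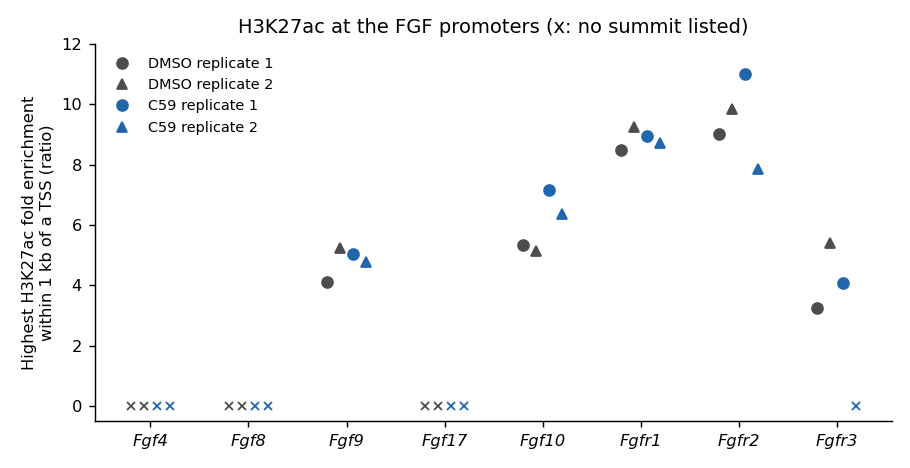
Highest H3K27ac fold enrichment (ratio to expected coverage) within 1 kb of a TSS of each gene in every library (gray DMSO, blue C59, circles replicate 1, triangles replicate 2, crosses at 0 where no summit was listed). Fgfr1 and Fgfr2 are the highest, at 7.87 to 10.97, and Fgf4, Fgf8 and Fgf17 have crosses only. Fgf10 lies higher in both C59 libraries, but its promoter region did not pass limma's test (adjusted p = 0.41).

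Across the windows, the number of H3K27ac summits was 94 and 106 in controls and 99 and 90 after C59. The means of 100 ± 8.49 and 94.5 ± 6.36 (SD, n = 2) differed by -5.5 summits, less than the spread between replicates (two-sided exact permutation test, p = 0.667). All 8 genes had H3K27ac summits in their window in both treatments, as did 84.9% of protein-coding genes in controls and 84.4% after C59. Of 53 control regions near the 8 genes, 46 overlapped a C59 region (86.8%, 95% Wilson interval 75.16 to 93.45%), against 87.0% of all regions. In reverse, 45 of 53 C59 regions overlapped a control region (84.9%, 72.95 to 92.15%), against 89.3%.

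By gene, acetylated regions of the controls were kept in the C59 consensus list at 4 of 4 near Fgf8, 3 of 3 near Fgf9, 9 of 9 near Fgf17 and 10 of 10 near Fgfr1. The counts were 5 of 6 near Fgf4, 3 of 4 near Fgf10 and 8 of 9 near Fgfr3, and the lowest was 4 of 8 near Fgfr2. Of the 4 missing Fgfr2 regions, 3 were listed in 1 C59 replicate. The replicate lists of Fgfr2 held 15 and 20 H3K27ac summits in controls and 16 and 13 after C59, so the treatments overlapped there in number. Those of Fgf4 held 12 and 13 in controls and 11 and 8 after C59, while those of Fgf8 held 6 in each of the 4 libraries. Counts were not tested by gene. Regions were counted by distance alone, and several lay at other genes. Examples are Ccnd1 near Fgf4, Oga near Fgf8, Bmp1 and Dmtn near Fgf17, and Fam53a and Tacc3 near Fgfr3.

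The height of acetylation was tested with limma on the log2 fold enrichment of the 45 regions near the 8 genes, of 60, that had a summit in all 4 libraries. None of the 45 passed an adjusted p of 0.05 (lowest adjusted p = 0.33), and 3 of 17219 regions did so genome-wide (0.0174%). At an unadjusted p under 0.05 there were 8 of the 45, against 11.6% of all regions. The median log2 difference was 0.11 near the 8 genes and 0.03 over all regions, so the whole list also leaned above 0. Of the 45, 31 were above 0. That count was 27 when library medians were not subtracted, and 26 to 32 with a replicate left out. By gene, the median log2 difference was highest for the 9 regions near Fgf17 (0.21, from -0.17 to 0.35) and lowest for the 8 near Fgfr3 (-0.02, from -0.25 to 0.38). Each gene but Fgf9 had regions on both sides of 0. These regions too were assigned by distance alone, and some lay at other genes. Fgf10 had only 2 such regions, its promoter and one over its 3′ exon at chr13:118791874-118792711, where the fold enrichment was 4.44 and 4.75 in controls and 3.92 and 3.96 after C59 (log2 difference -0.19 ± 0.18, limma adjusted p = 0.72). The promoter of Fgf10 thus read higher after C59 and its 3′ end lower, neither past the test. The regions named here were chosen after their values were seen. The largest log2 difference of the 45, 0.67 ± 0.24, was at chr14:57981860-57982633 in the Fgf9 window (limma adjusted p = 0.34). Fold enrichments there were 2.68 and 3.07 in controls against 5.905 and 3.40 after C59. A region at chr7:130161388-130162202 just beyond the 3′ end of Fgfr2 had 3.37 and 2.73 in controls against 4.37 and 4.26 after C59 (log2 difference 0.54 ± 0.19, limma adjusted p = 0.35). Another upstream of Fgfr2, chr7:130298718-130299869, had 5.56 and 4.81 in controls against 3.53 and 3.86 (-0.46 ± 0.20, limma adjusted p = 0.41). The 2 Fgfr2 regions moved in opposite directions, and neither they nor the Fgf9 region passed the test.

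**Figure D5:**
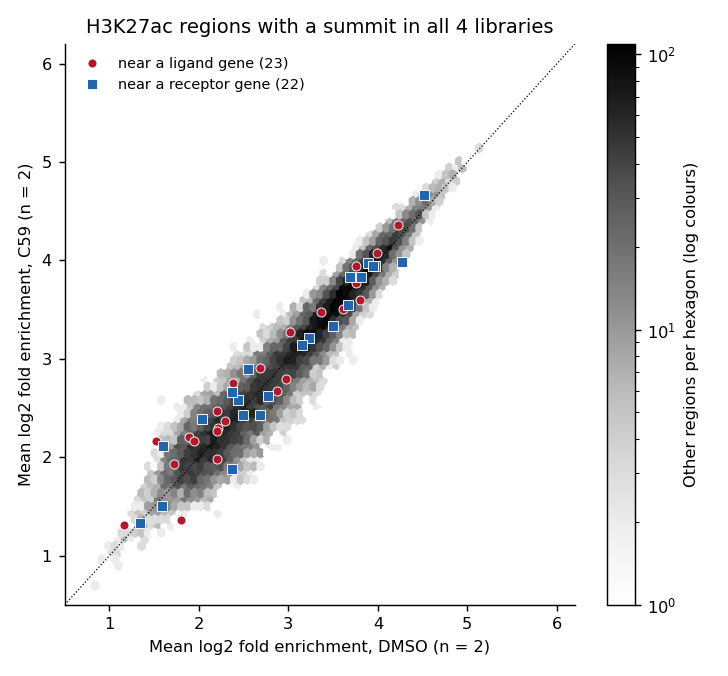
Mean log2 H3K27ac fold enrichment of regions with a summit in all 4 libraries, controls (x, n = 2) against C59 (y, n = 2). Red circles are 23 regions near the ligand genes, blue squares 22 near the receptor genes, gray hexagons all other regions and the dotted line marks equal values. The FGF regions lie within the cloud of the other regions, along the line.

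Some regions were listed in the consensus of a single treatment, 7 in controls and 8 after C59. Of these, 5 of the 7 and 6 of the 8 nevertheless overlapped a peak in 1 replicate of the other treatment. Those that overlapped none, 2 of 7 and 2 of 8, compare with 35.8% and 32.0% of all such regions. With the stricter demand that the peak hold the highest summit of the region, 2 of 7 and 3 of 8 had none, against 44.5% and 41.1%. The 2 control regions were in an intron of Fgf10 at chr13:118732308-118732658, with a fold enrichment of 5.19 and 3.35 in the replicates, and upstream of Fgfr2 at chr7:130288982-130289416, with 4.03 and 4.35. The 2 C59 regions were at chr5:33705063-33705684, 16.4 kb upstream of Fgfr3, with 3.66 and 4.25 in the replicates, and at chr7:130063827-130064294 downstream of Fgfr2, with 3.68 and 2.99. A region over an untranslated exon of Bmp1 in the Fgf17 window, chr14:70486186-70487173, had 3.85 and 2.72 after C59, and control replicate 2 listed a peak of 3.32 in it, beside its highest summit.

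The remaining control-only regions were 3 near Fgfr2, at chr7:130182279-130182853 (consensus fold enrichment 4.51), chr7:130278672-130279068 (4.09) and chr7:130407850-130408365 (3.92), the Fgfr3 promoter, and chr7:144943057-144943403 in the Fgf4 window (2.41). The remaining C59-only regions were 2 downstream of Fgf10, at chr13:118824873-118825535 (5.14) and chr13:118806368-118806767 (4.03), one in mm612 in the Fgfr1 intron at chr8:25542950-25543490 (3.42 and 3.94 in the C59 replicates), one at chr7:130064754-130065081 (4.49) and one in Micu2 in the Fgf9 window (4.00). The listing of each of these in the other treatment differed between its replicates.

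β-catenin and H3K27ac coincided at 8 of the 34 summits in controls (23.5%, 95% Wilson interval 12.44 to 40.0%), against 22.1% of all control summits. In each of these 8 cases, the nearest coding TSS belonged to another gene, such as Ccnd1, Oga, Dmtn, Npm2, Fam53a or Tacc3. None of the 19 summits for which the FGF gene itself was nearest lay in an H3K27ac peak of the control consensus list, including the 3 strong Fgf10 summits. The whole list differed by distance in the same way. Of all control summits, 49.3% within 10 kb of a coding TSS lay in a control H3K27ac peak and 14.2% of those farther away. The counts near the 8 genes were 7 of 13 and 1 of 21. With the C59 H3K27ac list, 12 of the 34 summits lay in a peak (35.3%, 21.49 to 52.09%), against 23.0% of all. The 4 summits added this way lay near Fgf10 (118713681, 118792302 and 118825205) and at the Fgfr2 promoter (130266385). The summits 118713681, 118792302 and 130266385 lay in merged regions with an H3K27ac summit in all 4 libraries. Only the called extent of the control peak left them out. Around 118792302, the fold enrichment was 4.44 and 4.75 in controls and 3.92 and 3.96 after C59. The region at 118825205 had a peak of 4.80 in control replicate 2.

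Of the C59-only regions near the 8 genes, 4 of 8 had a control β-catenin summit within 1 kb, against 29.2% of all C59-only regions. They were those at 118824873 near Fgf10, at 25542950 in Fgfr1, and both regions that flank the summit at 130064641 downstream of Fgfr2. Among the control-only regions this was so for 0 of 7, against 25.6% of all such regions, and among the regions shared by both treatments for 16 of 46, against 25.1%. With 7 and 8 regions these counts are a description.

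RefSeq lists 6 enhancers active in limb or ridge in the windows, and 2 of them, mm917 in Fgf10 and mm612 in Fgfr1, held a control β-catenin summit, against 74.2% of the 194 such elements of the genome. Of these 194, 1.55% held a C59 summit. In controls mm612 also held 3 H3K27ac summits, the highest at a fold enrichment of 6.58, and after C59 it held 4, the highest at 5.51, whereas mm917 held none. The overlapping elements mm595 and mm919, upstream of Fgfr1 at chr8:25439932-25442103, held H3K27ac summits of up to 5.66 in controls and 6.52 after C59 and no β-catenin summit. The elements of ridge genes, CR4 of Fgf8 at chr19:45689926-45691898 and the 3a fragment within the Fgf4 gene at chr7:144863935-144864284, held neither mark in the consensus lists, and no β-catenin summit was listed there in either control replicate. Ridge enhancers of Fgf4 and Fgf8 that RefSeq does not list were not analysed here, so these 2 elements do not stand for all ridge enhancers of these genes. For Fgf8, the study reports β-catenin peaks at most of the ridge-active elements it examined, and their loss after C59. Of the 194 elements, 61.9% held a control H3K27ac summit, and here 3 of 6 did. Of these, the overlapping mm595 and mm919 held the same summits, so that site was counted at both.

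Other genes of the pathway were counted in the same way: 17 further genes of the FGF family, Fgfr4, Fgfrl1 and the co-receptors Kl and Klb, 21 in all. Among them Fgf11, Fgf12, Fgf13 and Fgf14 encode factors that stay inside the cell. Of the 21, 18 had a control β-catenin summit within 150 kb, against 68.0% of protein-coding genes. There were 58 distinct summits in total, 3 of which also lay near the 8 genes. The median was 2 per gene, against 1 over all protein-coding genes. None had a C59 summit in either replicate, and 1.2% of protein-coding genes had one in the consensus list. The highest counts were 10 at Fgf12, a gene of 595 kb, 9 at Kl and 7 at Fgf11, and Fgf13, Fgf14 and Fgf20 had none in the consensus list. The windows of Fgf3 and Fgf15 overlap that of Fgf4. An H3K27ac summit within 1 kb of a TSS was listed in controls for 6 of the 21, against 51.8% of protein-coding genes. These were Fgf2, Fgf7, Fgf13, Fgf18, Fgfr4 and Fgfrl1. After C59 it was listed for 5 of them, without Fgf2, against 50.9% of protein-coding genes.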

How the data were processed

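Peak lists of β-catenin and H3K27ac ChIP-seq were used from 8 libraries (2 per antibody and treatment) and 4 consensus lists. The 4 input samples have no list and were not used here. Per the submitters' processing notes, cutadapt 4.1, Bowtie2 2.4.5, MACS2 2.2.7.1 and Picard 2.27.4 were used on mm10. The authors called peaks without input, and for the consensus lists removed duplicates, sampled replicates to equal depth and kept joint summits that lay in peaks of both. For every summit, the deposited lists hold a fold enrichment, which is a ratio of coverage to that expected from the library, and significance as a −log10 p-value and a −log10 q-value. Consensus values pool replicates and carry no error.

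A summit belonged to a gene when it lay within 150 kb of its RefSeq body (GRCm38.p6). RefSeq was chosen after the data were seen, because a GENCODE M21 transcript of Fgfr2 runs through the genes beyond it. Gene identifiers are those of GENCODE M21. Enhancer records are those of RefSeq and were also added after the data were seen. Depth is the lowest expected coverage, solved from fold and p to within 0.01 of the deposited −log10 p for 100% of rows, times the genome size of 1870000000. Summit counts were compared by exact permutation of the libraries. H3K27ac was tested with limma (trend) on the log2 of the highest fold enrichment per merged consensus region, with library medians subtracted and Benjamini-Hochberg adjustment over 17219 regions. Replicates are named as biological by the study. Intervals are 95% Wilson intervals and cover counting error only. Scripts were tested on simulated data. The genes, lists and tests were chosen with earlier results of these data known. The summits named are, by rule, up to 3 of highest fold enrichment per gene, all H3K27ac summits at promoters and all regions listed in 1 treatment. Weaker summits at promoters or in C59 H3K27ac peaks, summits just outside the windows and regions from the limma test were named beyond that rule, after their values were seen. Alternatives were other windows, thresholds, overlaps, cores, scalings and left-out replicates. Python 3.11.15, pandas 2.3.3, scipy 1.17.1, pysam 0.24.0, R 4.3.3 and limma 3.58.1 were used.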

Additional observations from a re-analysis of the deposited data

How the results depend on the processing

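Of 65 alternatives to 10 results, 53 gave the same reading. The β-catenin difference of -52.5 summits ranged from -58 to -47 when a replicate was left out, and was -22.5 in a window of 50 kb, -24 at a −log10 q of at least 5, -94 in a window of 300 kb and -94.5 with the gene bodies of GENCODE M21, which was added after the data were seen and is the setting where C59 replicate 2 listed 1 summit. No alternative gave a C59 peak at a control summit near the 8 genes. The H3K27ac difference of -5.5 summits ranged from -11.5 to 0.5 with a replicate left out, turning positive without DMSO replicate 2. With replicate numbers as a replicate block, the differences stayed -52.5 (exact sign-flip p = 0.5, the smallest possible) and -5.5 (p = 1), and limma called 117 regions, 0 of them near the 8 genes. The numbers are not known to pair the samples (correlation of deviations 0.0141 over regions). The limma count of 3 regions was 1 without the pseudocount of macs2, 1 to 24 with a replicate left out (1 without DMSO replicate 1, 24 without C59 replicate 1 and 14 without C59 replicate 2), and 1622 when libraries without a summit were set to the lowest fold of their list. That setting tested 21703 regions, so 1622 of 21703 stood against 4 of 60 near the 8 genes. Each of these 4 was unlisted in both libraries of a treatment. Retention of H3K27ac regions rose to 94.34% when a peak in either C59 replicate counted. Overlap of β-catenin with H3K27ac rose to 41.18% with peaks extended by 1 kb, and the core share to 52.94% for the 5-base core. Of the other FGF genes, 61.9% had a summit within 50 kb. Genome-wide shares at these settings are not given here. A list holds only peaks past its threshold, so a missing peak is not shown to be an absence of signal. Depth read from the peaks was 3.42 and 3.40 Gb in the C59 β-catenin libraries and 2.93 and 3.39 Gb in the controls. Whether depth or the efficiency of enrichment bears on the missing peaks was not tested.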
